A study of Homo sapiens with 4 samples.

Results

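The 9 genes SOX2, PAX6, OLIG2, NKX2-5, HAND1, GATA4, MYOD1, PDX1 and FOXA2 encode transcription factors that direct the formation of lineages other than breast epithelium. Their promoters were examined for H3K4me3 in MDA-MB-231, a cell line derived from a triple-negative breast carcinoma. Members were the peaks of the control and the ARID1A knockout list that overlapped the stretch of 2 kb either side of each gene's given hg19 start site. This rule found 7 peaks of 60265 in all: 3 of the 36677 control peaks and 4 of the 23588 knockout peaks. The control group carried the control genotype and the other group an ARID1A knockout. The series title names MDA-MB-231 for both, while 3 of the 4 libraries have cell line labels that end in other numbers. ARID1A is a subunit of the BAF chromatin remodelling complex. Each genotype had 1 H3K4me3 immunoprecipitate (IP) and 1 input library, 4 libraries in all. The labels give no treatment or time and do not say whether the knockout is a clone or a pool. As there was no replicate of either genotype, no p-value was computed, no difference could be set against the spread between cultures, and the intervals cover counting error only.

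H3K4me3, the trimethylated form of lysine 4 on histone H3, marks the promoters of active genes and many promoters rich in CpG dinucleotides. Promoters of lineage regulators are commonly rich in CpG, and in stem cells many carry this mark together with the repressive mark H3K27me3, a state called bivalent. In differentiated cells such genes are usually kept silent outside their own lineage, often by Polycomb complexes. The mark at a promoter is therefore no measure of transcription, which was not measured in these libraries.

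The IP libraries held 27748061 control and 13391724 knockout tags, and the input libraries 14878873 and 17890122. The lists differ in kind: control peaks had a median width of 2968 bp and 168 tags, and knockout peaks 300 bp and 419 tags. These differences run through both lists and stand beside every value below. Their part in the results at the 9 genes was not tested. Marker genes of the cell line were not analysed here, since only the 9 given start sites could be placed on hg19.

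In control cells 3 of the 9 start sites had an H3K4me3 peak: SOX2, HAND1 and FOXA2. In knockout cells 2 of the 9 had one: HAND1 and FOXA2. PAX6, OLIG2, NKX2-5, GATA4, MYOD1 and PDX1 had none in either list. These are the same 9 chosen sites in 1 IP library per genotype, so the counts carry no error for a difference between the genotypes. As a background, 10.1% of the effective genome lay within 2 kb of a control peak and 3.46% within 2 kb of a knockout peak. That background is of all bases and not of promoters, where the mark gathers.

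**Figure D1:**
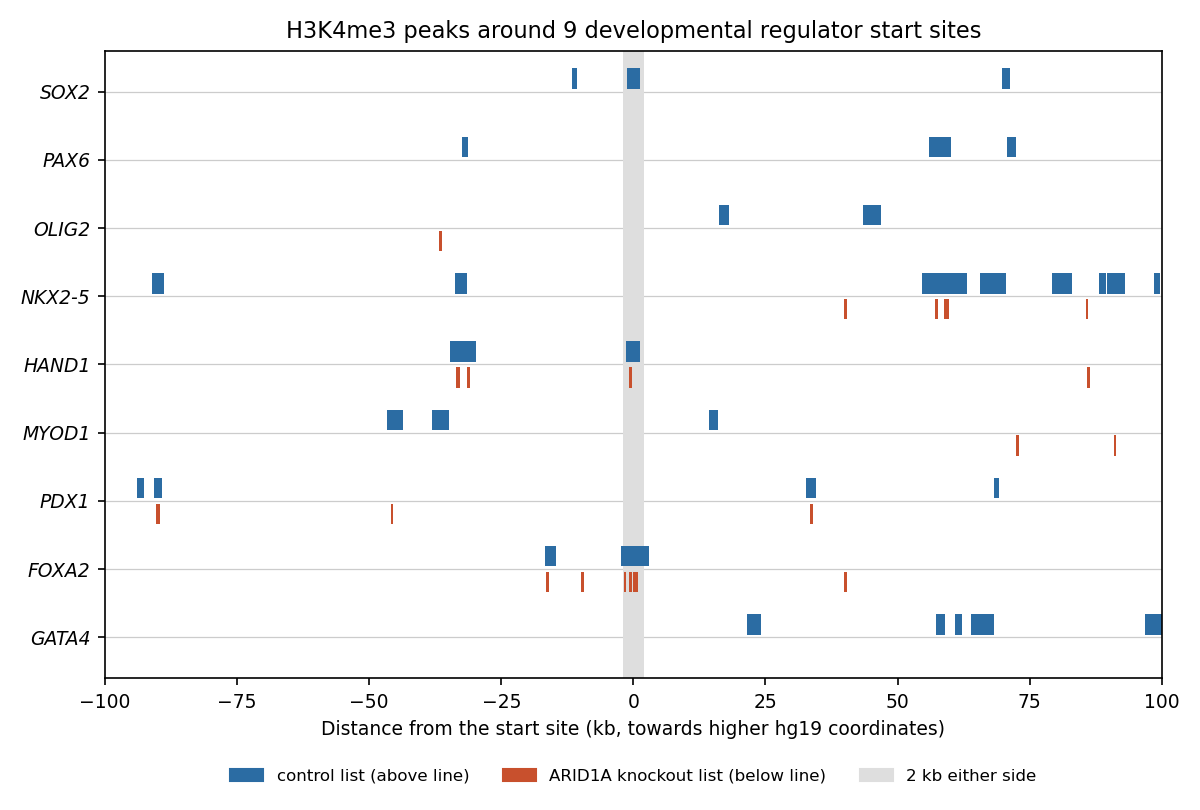
H3K4me3 peaks within 100 kb of the start sites of 9 developmental regulators, with distance from the start site in kb on the horizontal axis. Control peaks are boxes above each line and knockout peaks boxes below it, drawn at least 0.5 kb wide so that narrow peaks can be seen. In the shaded stretch of 2 kb either side, SOX2 has a control peak only, HAND1 and FOXA2 have peaks of both lists, and the other 6 genes have none.

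Of the marked promoters, RefSeq sequence was used for SOX2 and HAND1, to show the composition of a promoter marked in the control list only beside one marked in both. The 250 bases before the RefSeq start are given 5′ to 3′ in the direction of transcription, with every CG dinucleotide in capitals. They come from GRCh38.p14, at chr3:181711675-181711924 on the plus strand and chr5:154478228-154478477 on the minus strand. The peaks are in hg19, so no peak edge was placed on these letters.
SOX2: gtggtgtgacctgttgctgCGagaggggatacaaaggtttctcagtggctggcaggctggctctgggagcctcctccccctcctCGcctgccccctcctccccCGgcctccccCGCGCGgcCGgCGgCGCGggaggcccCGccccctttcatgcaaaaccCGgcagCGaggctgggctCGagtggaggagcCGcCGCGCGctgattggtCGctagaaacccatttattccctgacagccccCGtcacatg
HAND1: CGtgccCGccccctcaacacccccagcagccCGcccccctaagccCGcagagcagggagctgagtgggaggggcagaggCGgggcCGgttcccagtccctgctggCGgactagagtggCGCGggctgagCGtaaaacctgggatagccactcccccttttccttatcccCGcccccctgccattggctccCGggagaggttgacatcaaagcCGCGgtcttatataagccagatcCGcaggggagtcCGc
SOX2 held 20 CG dinucleotides in its 250 bases and HAND1 held 16, against a median of 11 over 35116 RefSeq promoters of the same length. The observed to expected ratio of CG was 0.682 for SOX2 and 0.571 for HAND1, with a median of 0.558 over all promoters. Both lay in the upper part of the promoters by number of CG: 67.6% of the promoters had fewer than SOX2 and 59.04% fewer than HAND1. The RefSeq table matched 3 of the 9 genes, and the remaining match was PAX6, with 9 alternative starts. The PAX6 promoters held 3 to 28 CG dinucleotides, and which of them belongs to the hg19 start site used here was not settled.

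A TATA box was searched as TATAAAA, as TATAAAT, as TATATAA and as TATATAT on both strands, and 9.28% of all promoters held at least 1. In HAND1, TATATAA was found 24 to 30 bases before the start, with an overlapping match on the opposite strand at 25 to 31. None of the 4 forms was found in the SOX2 letters. CCAAT, present on either strand in 32.01% of promoters, was found once in each gene, on the opposite strand, 43 to 47 bases before the SOX2 start and 65 to 69 before the HAND1 start. GGGCGG, present in 42.6%, was found at 1 place in SOX2 and 3 in HAND1. Such matches describe the letters and show no binding.

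SOX2, PAX6 and OLIG2 act in the nervous system. SOX2 maintains pluripotent cells and neural progenitors, PAX6 directs eye and forebrain formation, and OLIG2 specifies motor neurons and oligodendrocytes. SOX2 (chromosome 3, start site 181429712) had a control peak from 181428486 to 181430987 with 125 tags (exact Poisson interval 104 to 149), or 4.505 when scaled to 1000000 IP tags. This peak was 2502 bp wide and nearly centred on the start site, reaching 1226 bp towards lower and 1275 bp towards higher coordinates, with its summit 191 bp from the start. In strength it lay below the middle of its list: 41.6% of control peaks had fewer tags and 40.6% were narrower. Its false discovery rate, from the peak caller's exchange of IP and input, was 0.87%.

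No knockout peak was listed at SOX2, and the nearest lay 592124 bp away. The start site stood in a stretch of 1659043 bp without any knockout peak. Stretches at least as long made up 12.2% of the total length between knockout peaks. The absence of a peak at SOX2 was common for control peaks of its strength. The control peaks were placed in 10 equal groups by tags. Among the 3668 of the SOX2 group, with 119 to 168 tags, 10.5% held a knockout peak, against 28.4% of all control peaks. The tags at SOX2 in the knockout IP are not listed, because the lists give tags only within peaks. The smallest knockout peak of the list held 12 tags. In bulk chromatin, fewer marked cells and less mark per cell cannot be told apart.

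PAX6 (chromosome 11, start site 31832900) and OLIG2 (chromosome 21, 34398216) had no peak within 2 kb in either list. The nearest control peak lay 31316 bp from the PAX6 start and 16151 bp from the OLIG2 start. The nearest knockout peaks were at 257369 and 36291 bp. PAX6 thus lay within a knockout stretch of 558981 bp without a peak. Stretches of this length or more made up 38.6% of the total length between knockout peaks, so such a position is common.

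NKX2-5, HAND1 and GATA4 act in heart formation. NKX2-5 and GATA4 bind together at heart muscle genes, and HAND1 patterns the ventricle and is also needed in trophoblast. Of these only HAND1 was marked. HAND1 (chromosome 5, start site 153857824) had a control peak from 153856418 to 153859157 with 173 tags (148 to 201), or 6.23 per 1000000 IP tags, over 2740 bp. It covered the start site, with 1406 bp towards lower and 1333 bp towards higher coordinates, and its summit was 126 bp from the start. In tags it stood at the middle of the control list, where 50.7% of peaks had fewer.

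The knockout peak at HAND1 was one of the weakest of its list. It ran from 153857107 to 153857406 and held 30 tags (20 to 43), or 2.24 per 1000000. Only 1272 of the 23588 knockout peaks (5.39%) had as few. It was 300 bp wide, the fragment length set in the peak calling, and lay wholly inside the control peak, from 418 to 717 bp below the start site. HAND1 is read from the minus strand, so this is the transcribed side. The start site itself was covered in the control list and not in the knockout list.

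HAND1 was the member where 1 knockout peak matched 1 control peak. Its log2 ratio of knockout to control tags was -2.49, and -2.03 (-2.68 to -1.51) after centring on the median of all 7552 such pairs, which was -0.46. Of those pairs 14.6% had a lower ratio. The pairs had an SD of 1.96, so the HAND1 ratio lay about 1 SD below their median. Per kb of peak width the log2 ratio of HAND1 was above 0 before centring, at 0.70, and -2.36 after it. Among control peaks of the HAND1 tag group, with 168 to 267 tags, 15.7% held a knockout peak.

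NKX2-5 (chromosome 5, start site 172662315) and GATA4 (chromosome 8, 11561717) had no peak within 2 kb in either list. The nearest control peak was 31556 bp from the NKX2-5 start and 21414 bp from the GATA4 start. The nearest knockout peaks were at 39946 and 161965 bp. GATA4 stood in a knockout stretch of 579411 bp without a peak, and stretches at least as long made up 37.4% of the length between knockout peaks. For NKX2-5, OLIG2, MYOD1 and PDX1 that share was 62.6 to 88.2%. MYOD1 (chromosome 11, start site 17741110), which can convert fibroblasts into skeletal muscle, was also without a peak. It had the shortest distance of the 6 unmarked start sites to a control peak, 14354 bp. That control peak had a false discovery rate of 6.21%. The nearest knockout peak of MYOD1 was at 72545 bp.

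**Figure D2:**
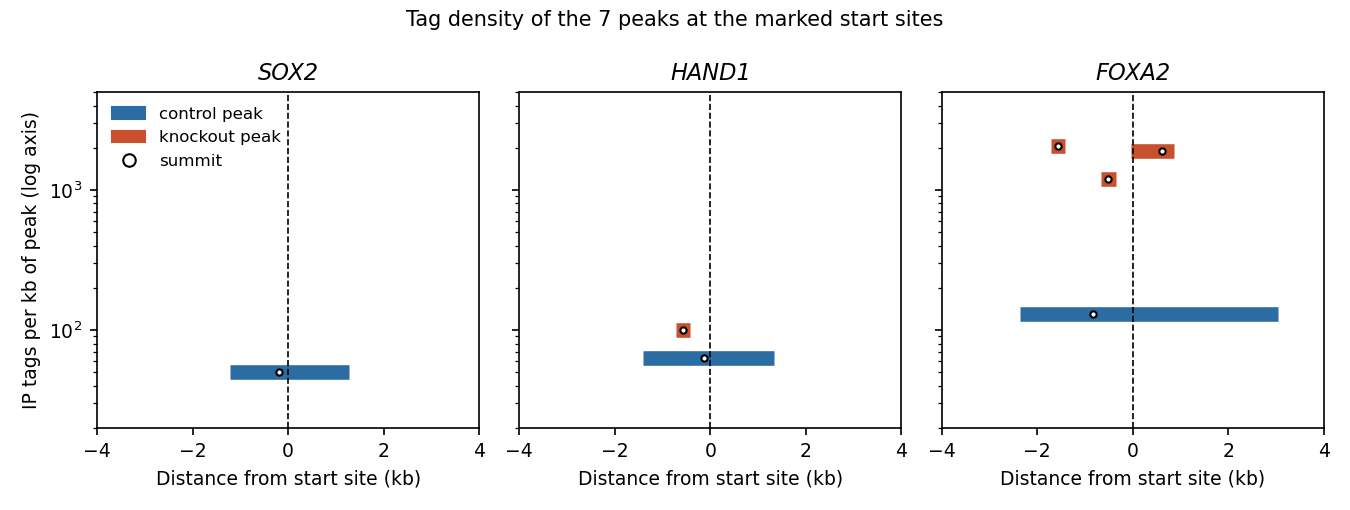
Tag density of the 7 peaks at SOX2, HAND1 and FOXA2, with distance from the start site in kb on the horizontal axis and IP tags per kb of peak on a log axis. Each thick line spans a peak from edge to edge and the circle is its summit. The control peaks stand at 49.96, 63.1 and 131 tags per kb, the HAND1 knockout peak lies just above its control peak, and the 3 FOXA2 knockout peaks stand between 1187 and 2073. The median over all control peaks was 56.5 tags per kb, and over all knockout peaks 1094. Of all knockout peaks 6.47% were less dense than the HAND1 knockout peak, and 53.4 to 79.3% less dense than those of FOXA2.

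PDX1 and FOXA2 act in the endoderm. PDX1 is required to form the pancreas and to maintain insulin-producing cells. FOXA2 is a pioneer factor of liver, lung and gut, able to bind its sites in closed chromatin. PDX1 (chromosome 13, start site 28494157) had no peak within 2 kb in either list, and its nearest control and knockout peaks, at 32635 and 33435 bp, overlapped each other. FOXA2 was the most strongly marked of the 9 genes in both lists.

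FOXA2 (chromosome 20, start site 22565101) had a control domain from 22562748 to 22568141 with 705 tags (654 to 759), or 25.4 per 1000000 IP tags. It was 5394 bp wide, wider than 79.2% of control peaks, and 75.8% of them had fewer tags. FOXA2 is read from the minus strand, so the domain reached 2353 bp into the transcribed side and 3040 bp upstream. Its summit was 838 bp into the transcribed side. The control tags at FOXA2 were 4.08 times those at HAND1 and 5.64 times those at SOX2. The Poisson interval of FOXA2 lay apart from the others, while those of SOX2 and HAND1 overlapped at 148 to 149 tags. Such an overlap is no test of a difference between counts.

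The knockout list held 3 separate peaks inside this FOXA2 domain. The widest ran from 22565066 to 22565961, over 896 bp, with 1705 tags (1625 to 1788), or 127 per 1000000 IP tags. It covered the start site and reached 860 bp upstream, with its summit 617 bp upstream. Only 4.27% of knockout peaks had as many tags and 5.44% were as wide. The others, each 300 bp wide, lay on the transcribed side, from 22564443 to 22564742 with 356 tags (320 to 395) and from 22563387 to 22563686 with 622 tags (574 to 673). The 622 tags are above the knockout median of 419 and the 356 tags below it.

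Together the 3 FOXA2 peaks held 2683 knockout tags over 1496 bp, or 27.7% of the width of the control domain, and 63.5% of these tags lay in the widest peak. Control peaks with 3 or more knockout peaks were rare: 1.82% of all control peaks, and 1.06% (0.757 to 1.45%) of the FOXA2 tag group, with 506 to 850 tags. In that group 53.7% held at least 1 knockout peak. The summed knockout tags were 3.81 times the control tags. The log2 ratio of these sums was 1.93, and 2.26 (2.14 to 2.38) after centring on the median of all 10427 control peaks with a knockout peak. Of those control peaks 92.1% had a lower ratio. Per kb of peak width the FOXA2 log2 ratio was 3.78, against a median of 2.94 over the same control peaks. This gives a centred value of 0.84, and 74.0% of those control peaks had a lower ratio per kb. With the tags of the widest knockout peak alone, not divided by width, the ratio was 1.61. This value was still centred on the median of the summed ratios, which is an unlike measure.

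**Figure D3:**
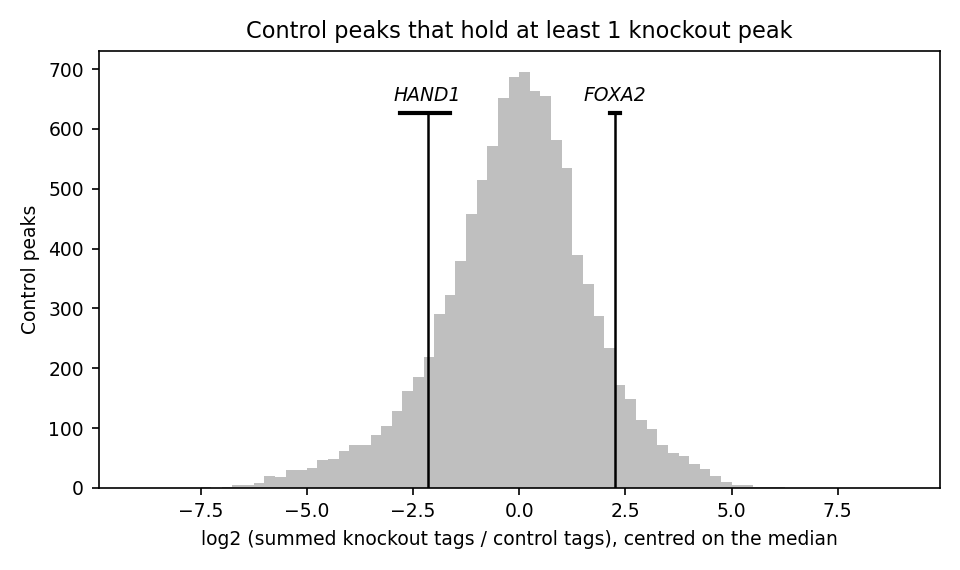
Centred log2 ratio of summed knockout tags to control tags (horizontal axis) for the 10427 control peaks that hold a knockout peak, with the number of control peaks per bin on the vertical axis. Vertical lines mark HAND1 at -2.16 and FOXA2 at 2.26, and the bars on top of them are 95% counting intervals. HAND1 and FOXA2 lie on opposite sides of the median.

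HAND1 and FOXA2 therefore stood on opposite sides of the median ratio. On the same scale of summed tags HAND1 was at -2.16 (-2.81 to -1.63) and 11.5% of control peaks were lower. The distance between the values exceeds the counting intervals, but the 10427 control peaks had an SD of 1.79, and how far either value would vary between cultures is not known. Of the 3 member control peaks 2 held a knockout peak, against 28.4% of all control peaks, and 3 peaks are too few to set against that share. All 4 member knockout peaks lay in a control peak, where 60.3% of all knockout peaks did. Of these 4, 3 lay in the same FOXA2 domain, so they stand for 2 start sites, too few to set against that share. In the control list the order of tags was FOXA2, HAND1, SOX2, which was also the order of widths, from 5394 over 2740 to 2502 bp.

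**Figure D4:**
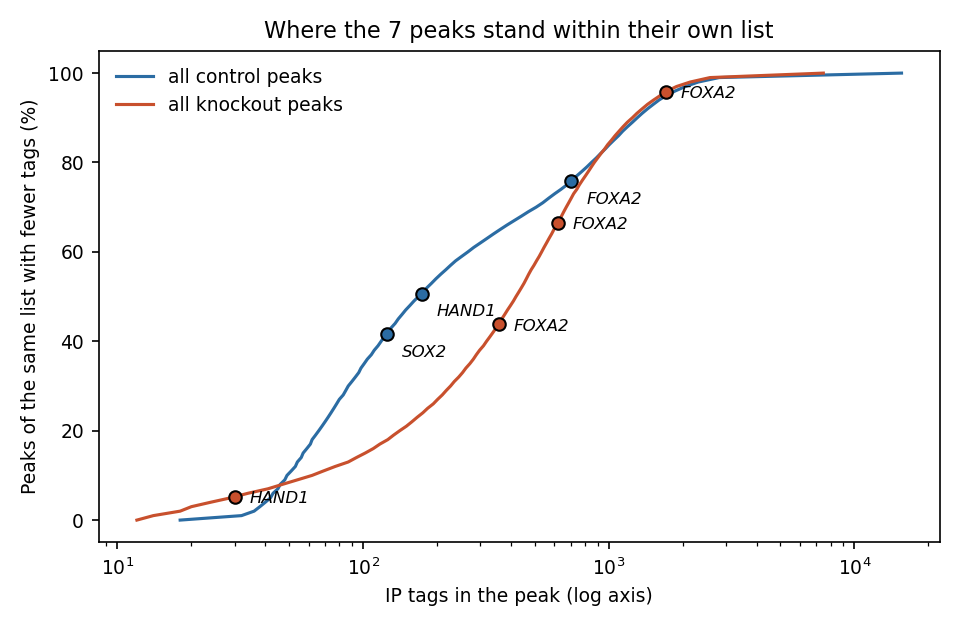
Standing of the 7 member peaks within their own list, with IP tags in the peak on a log axis and the percentage of peaks of the same list with fewer tags on the vertical axis. Lines are all peaks of each list and circles are the members. SOX2 and HAND1 lie near the middle of the control list at 41.6 and 50.7%, the HAND1 knockout peak lies at 5.12%, and the widest FOXA2 knockout peak at 95.7%.

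Across the 6 unmarked start sites, the nearest control peak was at 14354 to 32635 bp, with a median of 26365 bp. The nearest knockout peak was at 33435 to 257369 bp, with a median of 56245.5 bp. With all listed peaks counted, each of the 6 was closer to a control peak than to a knockout peak. The nearest control peaks of PAX6, MYOD1, GATA4 and OLIG2 had false discovery rates of 21.75, 6.21, 3.91 and 2.2%. At a limit of 1%, OLIG2 was closer to a knockout peak, at 36291 bp, than to a control peak, at 43451 bp. MYOD1 then had no control peak within 100 kb, while its nearest knockout peak was at 72545 bp. The knockout list has fewer and narrower peaks, and the median stretch between peaks was 41882 bp in it and 25856 bp in the control list. A start site without a listed peak may still carry tags below the calling threshold, which the lists do not show.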

How the data were processed

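H3K4me3 was profiled in 1 IP and 1 input library per genotype, grouped by their titles. Chromatin was digested with micrococcal nuclease, per the labels' protocols. The tools Bowtie2 2.2.4 and MACS 1.4.3 and the assembly hg19 come from the submitters' processing notes. Per the file headers, MACS compared each IP with its own input at a p cutoff of 0.0001 and a fragment length of 300 bp, and scaled the larger library to the smaller. The knockout header names its library K6, which no label explains. The input libraries carry IgG as antibody label, and 3 libraries have cell line labels that end in other numbers than the series title.

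The deposited tag counts are whole IP tags within a peak, not normalized. The deposited fold enrichment is a ratio to the local background, the deposited false discovery rate is a percent that MACS derives by swapping IP with input, and the deposited score is 10 times the negative log10 of p. The last 3 were used only within a list. Whether duplicate tags were removed is not given in the sources at hand, and copies of 1 fragment count separately in all intervals.

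Start sites were those given for the 9 genes. All 9 genes are named, and the members and this choice were made with earlier results of these data known. Overlap meant at least 1 shared bp. Ratios used a pseudocount of 1. Control peaks were placed in 10 equal groups by tags. Intervals are 95% exact Clopper-Pearson for shares of peaks, exact Poisson for tags and binomial for ratios. The overlap and ratio steps were tested on simulated data. No hg19 annotation was used, so other lineage regulators were not analysed here. RefSeq gave names and promoter letters only. Python 3.11.15 was used, with pandas 2.3.3 and numpy 2.4.6 for tables, scipy 1.17.1 for intervals and matplotlib 3.10.9 for figures.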

Additional observations from a re-analysis of the deposited data

How the results depend on the processing

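The start sites with a control peak (SOX2, HAND1 and FOXA2) were the same 3 with windows of 1, 5 and 10 kb, and when peaks were limited by false discovery rate (at most 1%), by MACS p (at most 1e-10), by fold enrichment (at least 10) or by a summit in the window. Under the same 7 settings the start sites with a knockout peak were the same 2, HAND1 and FOXA2. With only knockout peaks wider than 300 bp, 1 start site had a knockout peak and 1 member control peak held one, FOXA2 in both cases, since the HAND1 knockout peak is 300 bp wide. Of all knockout peaks 55.0% had that width and were left out by this limit. The other 3 criteria for holding a knockout peak gave 2. Scaled by library totals and not centred, the HAND1 ratio was -1.44, outside the counting interval of the centred ratio, which is on another scale. The centred HAND1 ratio was -2.36 per kb and -2.05 with a pseudocount of 0.5, within that interval. The FOXA2 ratio of summed tags and its alternatives were added after the data were examined: 2.98 scaled by library totals, 0.84 per kb and 1.61 with the widest knockout peak alone, all above 0. These shifts in the ratios follow from the settings, which scale or select the same deposited tags in different ways. No paired analysis was possible because neither genotype has a replicate and the values come from no test.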

Other observations

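Within 100 kb of the 6 unmarked start sites there were 25 control peaks, of which 3 overlapped a knockout peak, against 28.4% of all control peaks. The 25 peaks held 30 to 1692 tags, with a median of 114 against 168 over all control peaks. The 3 that overlapped a knockout peak had 46, 154 and 1183 tags, and peaks of 535, 614 and 1692 tags overlapped none. Whether tag number bears on this overlap was not tested. In the SOX2 tag group, with 119 to 168 tags, 10.5% of control peaks held a knockout peak. There were 10 knockout peaks, of which 4 overlapped a control peak, against 60.3% of all knockout peaks. These counts are too small to be set apart from those shares. Each site had between 2 and 8 control peaks at this range, and PAX6 and GATA4 had no knockout peak there. The mean per site was 4.17 control and 1.67 knockout peaks. Over the effective genome a stretch of the same length held 2.72 and 1.75 on average. The PDX1 surroundings held 2 of the 3 shared control peaks. There a control peak of 154 tags from 28526792 to 28528736, with a false discovery rate of 0.5%, met a knockout peak of 1098 tags. A control peak of 46 tags from 28403463 to 28404858 met a knockout peak of 1511 tags. The false discovery rate of this control peak was 10.53%, so it is a doubtful call. In RefSeq order the coding genes next to PDX1 are GSX1 and CDX2, which are regulators of brain and gut development, but no peak was assigned to either.

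The remaining shared control peak lay near NKX2-5, from 172716920 to 172725473, with 1183 control tags and 2 knockout peaks of 312 and 613 tags. Near OLIG2 the strongest peak was found in the knockout list only, from 34361453 to 34361925, with 1310 tags over 473 bp. The control list had there a peak of 295 tags from 34441667 to 34445106, on the side where RefSeq lists OLIG1, the neighbouring regulator of the same family, and it held no knockout peak. Near FOXA2 a knockout peak of 538 tags, from 22555332 to 22555631, lay 9470 bp from the start site outside any control peak. A knockout peak of 14 tags lay within a control peak of 95 tags, from 22548312 to 22550386.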
